A study of Eublepharis macularius with 18 samples.

Results

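Heart tissue of a lizard, the leopard gecko (Eublepharis macularius), taken 100 days post injury (dpi) was compared with tissue taken at 14 dpi, using 6 of the 18 libraries of the series, 3 animals at each time. Every gene whose normalized counts averaged 10 or more across these 6 libraries was taken, which gave 9896 of the 12376 rows of the table. The lowest mean kept was 10.003 and the highest left out was 9.996. Of the 2480 rows left out, 717 were at 0 in all 6 libraries.

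Injury was made by opening the pericardium and touching the ventricle with a metal probe cooled in liquid nitrogen, and poly-A RNA was sequenced from ventricle next to the injury. The 14 and 100 dpi animals both carried this injury and differed by the time since it; no genotype, age or sex is given in the labels. The other groups of 3 animals, used here as levels of reference, were controls, sham-operated animals, and animals at 3 and 30 dpi, with comparable ventricle taken from controls and shams. When the shams were sampled is not stated in the labels. RNA was extracted from each animal by itself, so the 3 libraries of a group are separate animals.

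After a heart wall injury, fibroblasts and other stromal cells lay down a provisional matrix of glycoproteins and fibrillar collagens, which is later crosslinked, remodelled or removed. In mammals this matrix usually persists as a scar, whereas in hearts that regenerate, such as those of zebrafish, collagen is laid down and then largely cleared. Matricellular proteins such as tenascin and thrombospondins are secreted in wounds and are scarce in uninjured adult muscle.

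The heart muscle identity of the tissue was visible in all 6 libraries. By FPKM, which scales reads by transcript length, Tnnt2 (cardiac troponin T) ranked between 10 and 13 and Myh6 (a cardiac myosin heavy chain) between 16 and 25 among all rows, and the other 6 marker genes of cardiomyocytes were also detected. The 14 dpi libraries held 12646400 to 14488000 reads, and the 100 dpi libraries held 16892100, 18662100 and 34898500. The last of these, 100 dpi 3, was the deepest of the series. On the first principal component of all 18 libraries, which held 19.0% of the variance, the 30 and 100 dpi libraries lay between 21.7 and 30.9, and the control, sham, 3 and 14 dpi libraries between -42.4 and -0.76. The row annotated Lars2 took 4.11 to 5.90% of reads at 14 dpi, 6.91 to 7.58% at 100 dpi and at least 8.25% at 30 dpi. The 2 times compared therefore lie on opposite sides of a split of the whole series, and no label gives a batch, so time and any difference in handling between these groups cannot be told apart. In bulk tissue, fewer cells of a type and less RNA per cell cannot be told apart either.

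Between 14 and 100 dpi, 21 of the 45 genes tested of an extracellular matrix list were called lower and 0 higher. limma, on log2(normalized count + 1) with Benjamini-Hochberg adjustment over all genes tested, called 353 genes, 3.57% of those tested, at an adjusted p under 0.05. Of these, 130 (1.31%) were lower at 100 dpi and 223 (2.25%) higher, so that 63.2% of the calls were rises. After subtraction of a trend on transcript length from every library, 154 genes were lower and 146 higher, and rises were 48.7% of the calls. The falls were larger: their median change was -1.33 on the log2 scale against 0.71 for the rises, with 35 falls and 10 rises past 2. The median change of all genes tested was 0.00. An unadjusted p under 0.05 was reached by 1763 of the 9896 genes tested, the background for such counts in the lists below. In 129 of the 130 genes called lower and in all 223 called higher, the 3 libraries of one time did not overlap with those of the other. Over all genes tested, 13.8% lay wholly below and 14% wholly above. The calls were made on the same values, so such separation is largely built into them. Leaving out 1 library, which lowers the number of animals, moved the count by more than 1.5 times in every case. There were 131, 127 and 110 calls without 14 dpi 1, 2 and 3, and 137, 157 and 194 without 100 dpi 1, 2 and 3.

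**Figure D1:**
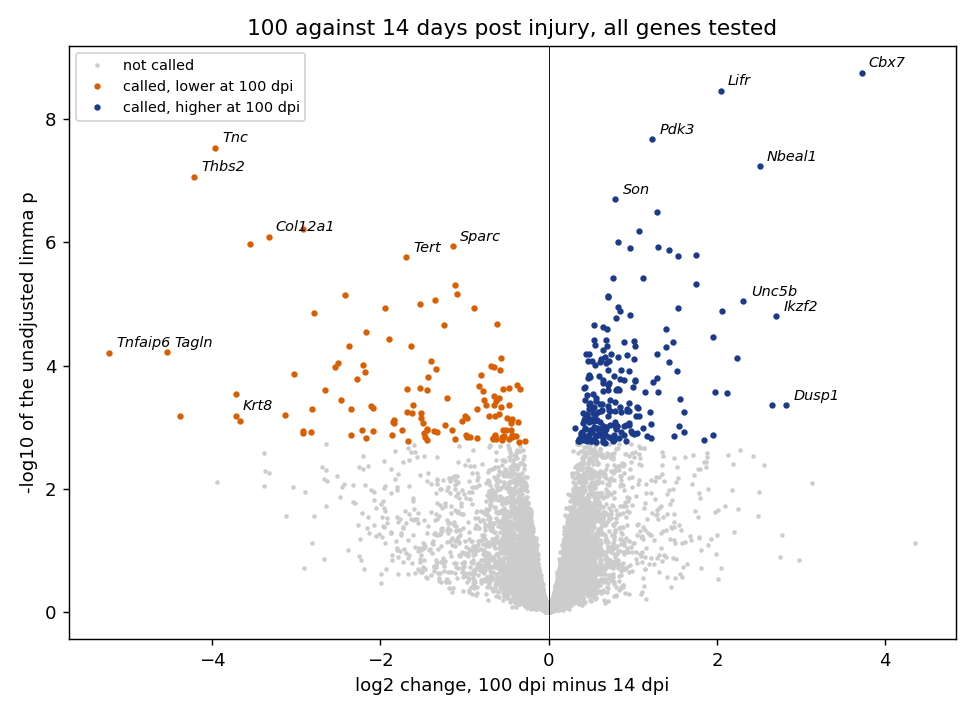
Each point is 1 of the 9896 genes tested; the x axis is the log2 change from 14 to 100 dpi and the y axis the -log10 of the unadjusted limma p. The 130 genes called lower (orange) reach further from 0 than most of the 223 called higher (blue), with Tnc, Thbs2, Tagln and Tnfaip6 far to the left and Cbx7 far to the right.

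Tnc, Thbs2, Col12a1 and Aspn were the members of the matrix list described first. Tnc, which encodes tenascin-C, a wound glycoprotein that loosens cell adhesion, had 757, 591 and 525 normalized counts at 14 dpi and 43.9, 18.8 and 68.5 at 100 dpi. Every 100 dpi library was far below every 14 dpi library, and the mean was 14.3 times as high at 14 dpi. The log2 change was -3.97 ± 0.39 (SE, n = 3 against 3; limma adjusted p = 7.26e-05). Thbs2, which encodes thrombospondin 2, a matricellular protein that limits vessel growth in mice, had 169.9, 260.0 and 203 at 14 dpi and 11.5, 8.04 and 11.6 at 100 dpi. The 100 dpi libraries were close to one another, and the mean was 20.4 times as high at 14 dpi, with a log2 change of -4.22 ± 0.45 (limma adjusted p = 0.000141). Col12a1, a collagen that sits on the surface of collagen fibrils, had 834, 989 and 756 at 14 dpi and 107, 73.2 and 76.2 at 100 dpi. Its log2 change was -3.33 ± 0.42 (limma adjusted p = 0.000726), again with no overlap. Aspn, which encodes asporin, a small proteoglycan that binds collagen, had 245, 200.1 and 91.1 at 14 dpi and 13.4, 10.7 and 15.9 at 100 dpi. The lowest 14 dpi library was still well above the highest at 100 dpi, and the log2 change was -3.55 ± 0.46 (limma adjusted p = 0.000754).

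In the RefSeq gene table of assembly MPM_Emac_v1.0, the genes of the same symbols are placed at chr14:50707506-50825753 for Tnc, chr1:144026345-144100474 for Thbs2 and chr1:74819518-74974880 for Col12a1. The deposited rows themselves carry mouse gene identifiers and no coordinates.

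The matrix list held 45 genes that were tested. Of these, 21 were called lower and 0 higher, against 1.31% and 2.25% over all genes; the median change was -1.23 and 39 members had a negative change. In 28 members all 3 libraries at 100 dpi were below all 3 at 14 dpi, as in 13.8% of all genes tested. The number called was 11 to 15 when 1 library was left out. The list's median deviation from the mean of the 18 libraries was 0.65 to 1.02 in the 14 dpi libraries and -0.46 to -0.31 in the 100 dpi libraries. Control lay between -0.57 and -0.18.

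Among the fibrillar collagens, Col1a2, a chain of the main collagen of scars, had 9629, 10679.7 and 8841 normalized counts at 14 dpi and 2600.0, 2549 and 2426 at 100 dpi. Its log2 change was -1.94 ± 0.31 (limma adjusted p = 0.00334), and control libraries had 2796, 4065 and 2869. The partner chain Col1a1 had 14394, 15046 and 10407 at 14 dpi and 3369, 4226 and 3391 at 100 dpi, a log2 change of -1.85 ± 0.45 (limma adjusted p = 0.0359). Both chains had separate groups, but Col1a1 lost its call whichever of the 6 libraries was left out (limma adjusted p up to 0.109), with a log2 change of -2.02 to -1.75. Col5a1, a chain of the collagen that starts fibrils, had 6959, 8019 and 7295 at 14 dpi and 2638, 3333 and 3445 at 100 dpi, with a log2 change of -1.25 ± 0.21 (limma adjusted p = 0.005). Col3a1, the collagen of young, pliable matrix, started from a much higher level, with 34685 to 39207 at 14 dpi and 8756 to 20916 at 100 dpi. Its log2 change was -1.37 ± 0.34 (limma adjusted p = 0.0421), called in 1 of the 6 fits without a library (limma adjusted p up to 0.175). Col6a1, Col6a2 and Col6a3, the chains of the beaded collagen around cells, were also called lower, with log2 changes of -1.44, -1.44 and -1.90, and kept the call in 1, 3 and 6 of those fits (limma adjusted p up to 0.0806, 0.0638 and 0.0351).

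Fbn1, Eln, Fbln1, Fbln5 and Sparc were also called lower. Fbn1, which encodes the microfibril protein fibrillin-1, had 1596, 1179 and 1041 at 14 dpi and 325, 521 and 381 at 100 dpi, a log2 change of -1.64 ± 0.30 (limma adjusted p = 0.008). Eln, which encodes elastin, had 8049.5, 5869 and 5474 at 14 dpi and 2570.4, 2791 and 1955 at 100 dpi, a log2 change of -1.40 ± 0.27 (limma adjusted p = 0.0107). For both genes the groups were apart, and the control libraries, at 411 to 609 for Fbn1 and 2782 to 3314 for Eln, lay near or slightly above the 100 dpi level. Fbln1 and Fbln5, fibulins that link elastic fibres, had log2 changes of -3.03 and -2.09 and were both called, in 4 and 0 of the fits without a library (limma adjusted p up to 0.0568 and 0.155), and Eln was called in 5 of these. Sparc, a collagen-binding protein, was abundant, with 12841, 14287 and 12856 at 14 dpi and 5313, 6333 and 6517 at 100 dpi. Its change was smaller but even between animals, with a log2 change of -1.14 ± 0.15 (limma adjusted p = 0.000754).

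**Figure D2:**
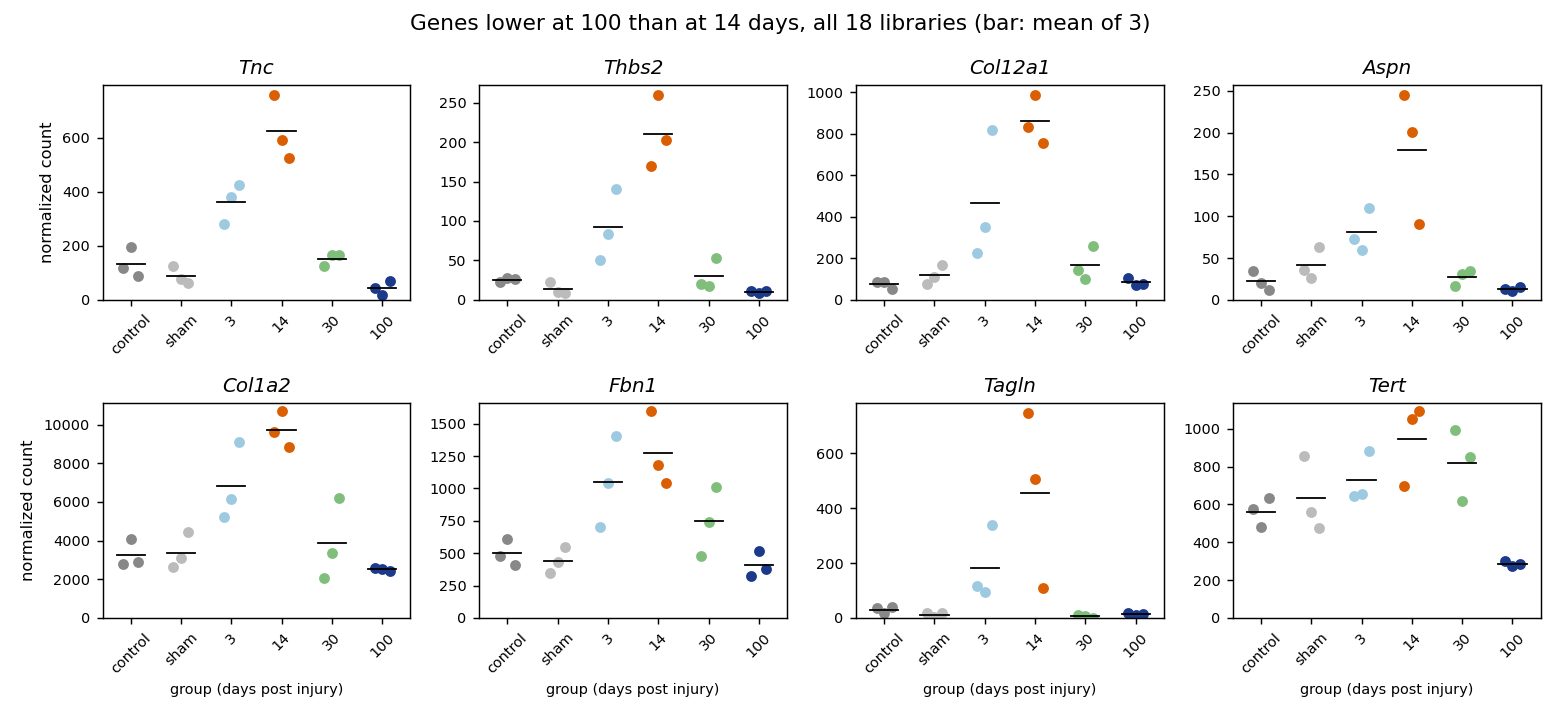
Normalized counts on a linear axis in all 18 libraries (points; bars are means of 3) for 8 genes called lower at 100 dpi than at 14 dpi, by group. In each panel the 3 libraries at 100 dpi lie below the 3 at 14 dpi. Those of Tnc, Thbs2, Col1a2 and Tagln also lie below the 3 control libraries, but those of Tnc, Thbs2 and Tagln overlap the sham libraries. Tert at 100 dpi lies below every other group.

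Not every matrix gene was called lower. Of the 45 tested, 6 had a positive change, the largest at 0.89, and 0 were called higher. Dcn, which encodes decorin, the main small proteoglycan of stroma, had 4645, 3753 and 4176 at 14 dpi and 3445, 4347 and 2881 at 100 dpi. Those values overlap, with a log2 change of -0.25 ± 0.15 (limma adjusted p = 0.407). Bgn, the related biglycan gene, had 950.1, 499.7 and 424 at 14 dpi and 287, 773 and 712 at 100 dpi, also overlapping (log2 change -0.12 ± 0.51, limma adjusted p = 0.929). Postn, which encodes periostin, a protein of activated fibroblasts in mouse hearts, had 3288, 5099 and 3279.9 against 1849, 2950.0 and 2445. Its groups did not overlap, but the log2 change of -0.68 ± 0.31 was not called (limma adjusted p = 0.272). Fn1, which encodes fibronectin, had a log2 change of -1.13 ± 0.49 and did not pass either (limma adjusted p = 0.232). Col23a1, a collagen gene outside the matrix list, was called higher (log2 change 0.98, limma adjusted p = 0.042). It kept the call in 0 of the 6 fits without a library (limma adjusted p up to 0.162) and lost it with the length trend removed.

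Of 25 genes of collagen processing and crosslinking tested, 3 (12%, against 1.31% over all genes) were called lower and 0 higher. They were Lox, Adamts2 and Crtap. The list's median was -0.39, and between 0 and 2 were called when 1 library was left out. Lox, the lysyl oxidase that crosslinks collagen and elastin, had 465, 344 and 364 at 14 dpi and 105, 202 and 122 at 100 dpi. Its log2 change was -1.49 ± 0.36 (limma adjusted p = 0.0367), and it kept the call in 1 of 6 fits without a library (limma adjusted p up to 0.138). Adamts2, the protease that trims procollagen, had 644, 769 and 674 against 242, 359.9 and 309, a log2 change of -1.21 ± 0.26 (limma adjusted p = 0.023). Both genes had groups that were apart, and Adamts2 also kept the call in 1 of those fits (limma adjusted p up to 0.0946). Among 31 matrix proteases and inhibitors, 2 (6.45%, against 1.31% over all genes) were called lower and 0 higher, with a median of -0.27. They were Ctsk, the collagen-degrading cathepsin K, with 221, 153 and 181 at 14 dpi and 74.5, 54.5 and 31.8 at 100 dpi (log2 change -1.83 ± 0.44, limma adjusted p = 0.0345), and Mmp14, a membrane-bound collagenase. Mmp14 had 1368, 1323 and 1050.3 against 649, 604 and 574, a log2 change of -1.03 ± 0.25 (limma adjusted p = 0.0345). Ctsk and Mmp14 kept the call in 1 and 0 of the 6 fits without a library, with limma adjusted p up to 0.11 in each.

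Of 22 basement membrane genes, 5 (22.7%, against 1.31% over all genes) were called lower and 0 higher, and the median was -0.40. Between 2 and 4 were called when 1 library was left out. Col18a1, whose product ends in the fragment endostatin, had 689, 572 and 496 at 14 dpi and 77.4, 175 and 91.1 at 100 dpi, a log2 change of -2.42 ± 0.37 (limma adjusted p = 0.00271). Col4a5, a network-forming collagen chain, had 4488, 4495 and 2871 against 1435, 1642 and 1471, a log2 change of -1.35 ± 0.21 (limma adjusted p = 0.00294). Both held in all 6 fits without a library. Nid1 (nidogen 1) and Col4a1 were also called, with log2 changes of -0.81 and -0.55. Nid1 kept the call in 3 of the 6 fits, and Col4a1 lost it in every fit without a library (limma adjusted p up to 0.0697 and 0.197).

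Markers of the cells that make matrix changed in part. In the fibroblast and myofibroblast list, 3 of 13 genes tested (23.1%, against 1.31% over all genes) were called lower and 0 higher. The median was -0.88, with 12 negative changes, and 0 to 3 were called when 1 library was left out. Cthrc1, a secreted marker of activated fibroblasts in mouse hearts, had 129, 43.3 and 32.3 at 14 dpi and 11.5, 3.57 and 8.68 at 100 dpi. The 14 dpi values varied several-fold, and the log2 change was -2.82 ± 0.65 (limma adjusted p = 0.0283). Lrrc15, another myofibroblast marker, had 94.5, 68.8 and 114 against 41.1, 30.4 and 23.6, and Prrx1, a mesenchymal transcription factor, had 56.2, 73.9 and 56.5 against 25.8, 13.4 and 13.02. Their log2 changes were -1.52 ± 0.36 and -1.84 ± 0.45 (limma adjusted p = 0.0335 and 0.0367). These 3 genes kept the call in 1 or 2 of the 6 fits without a library, with limma adjusted p up to 0.136. Pdgfra, a general receptor of fibroblasts, had 749, 769.9 and 691 against 361, 614 and 286, with groups apart, and was not called (log2 change -0.88 ± 0.26, limma adjusted p = 0.0791). Cdh11, a cadherin of mesenchymal cells, was the only called member of the 39 integrin and adhesion genes (2.56%, against 3.57% over all genes). It had 197, 175 and 154 at 14 dpi and 36.3, 30.4 and 13.02 at 100 dpi (log2 change -2.79 ± 0.45, limma adjusted p = 0.00367).

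In the smooth muscle list, 2 of 15 genes (13.3%, against 1.31% over all genes) were called lower and 0 higher. Tagln, which encodes transgelin, an actin-binding protein of smooth muscle and myofibroblasts, had 747, 506 and 111 at 14 dpi and 16.2, 12.5 and 13.5 at 100 dpi. The third 14 dpi animal was far below the other two yet above all at 100 dpi, and the log2 change was -4.54 ± 0.84 (limma adjusted p = 0.00946). Lmod1, a leiomodin of smooth muscle, had 71.8, 112 and 51.9 against 11.5, 3.57 and 20.7 (log2 change -2.82 ± 0.71, limma adjusted p = 0.0422; called in 1 of 6 fits without a library, limma adjusted p up to 0.158). Acta2, smooth muscle actin, was very high in both groups, at 33295 to 55211 at 14 dpi and 29492 to 46523 at 100 dpi, and overlapped (log2 change -0.23 ± 0.29, limma adjusted p = 0.721).

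Epicardial genes mark the outer layer of the heart and are known to be reactivated after injury in zebrafish. Of 8 tested, 2 (25%, against 1.31% over all genes) were called lower and 0 higher. The median was -0.90, with 6 negative and 2 positive changes, the highest at 1.65. Between 0 and 2 were called when 1 library was left out. Krt8, a keratin of simple epithelia, had 160.3, 654 and 746 at 14 dpi and 50.6, 36.6 and 16.9 at 100 dpi (log2 change -3.72 ± 0.88, limma adjusted p = 0.0315). Wt1, the epicardial transcription factor, had 86.2, 232 and 332 at 14 dpi and 49.7, 86.6 and 13.98 at 100 dpi. It is the one gene called lower whose groups overlapped, because the first 14 dpi animal lay at the level of the second 100 dpi animal (log2 change -2.22 ± 0.56, limma adjusted p = 0.0413). That 14 dpi animal was the lowest of its group for both genes. Krt8 kept the call in 1 and Wt1 in 2 of the 6 fits without a library, with limma adjusted p up to 0.128 and 0.174.

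Ccdc80, Fstl1, Tnfaip6, Cpe, Slit1 and Pthlh were also called lower. Ccdc80, a matrix-bound secreted protein, had 811, 543 and 489 at 14 dpi and 94.6, 98.2 and 51.6 at 100 dpi (log2 change -2.92 ± 0.36, limma adjusted p = 0.00064). Fstl1, a secreted follistatin-like protein studied as an epicardial factor in mouse hearts, had 6057, 5722 and 5195 against 2456, 2689 and 2689 (log2 change -1.11 ± 0.16, limma adjusted p = 0.00206). Fstl1 was even within each time and Ccdc80 less so, and both held in all 6 fits without a library. Tnfaip6, which encodes a hyaluronan-binding protein made in inflamed tissue, had 83.8, 109.6 and 14.99 at 14 dpi and 0.955, 0 and 0.482 at 100 dpi. Those 100 dpi values correspond to 1, 0 and 1 reads, under the floor of 3 reads per library, so no fold is given (limma adjusted p = 0.00946; called in 5 of 6 fits without a library, limma adjusted p up to 0.0517). Cpe, a peptide-processing carboxypeptidase, had 123, 167 and 72.6 against 14.3, 0.893 and 4.82 (log2 change -4.38 ± 1.03, limma adjusted p = 0.0315). Slit1, a guidance ligand, had 23.9, 61.2 and 95.7 against 7.64, 0 and 6.75 (log2 change -3.71 ± 0.80, limma adjusted p = 0.0208). Pthlh, which encodes parathyroid hormone-related protein, had 46.7, 26.8 and 26.5 at 14 dpi, and at 100 dpi 3, 1 and 3 reads, no more than that floor (limma adjusted p = 0.0345). The latter 3 low genes rest on few reads at 100 dpi and kept the call in 1, 3 and 0 of the 6 fits without a library, with limma adjusted p up to 0.123, 0.1 and 0.111.

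A pair of genes with other roles stood among the strongest falls, and both ended below control. Tert, the catalytic subunit of telomerase, had 695, 1053 and 1094 at 14 dpi and 299.9, 272 and 284 at 100 dpi, while control had 576, 478 and 633. Its log2 change was -1.70 ± 0.23 (limma adjusted p = 0.000857), and 100 dpi against control gave -0.97 (limma adjusted p = 0.014). Ift140, a transport protein of cilia, had 303, 307 and 281 against 131, 117 and 176 (log2 change -1.09 ± 0.17, limma adjusted p = 0.00271), and 100 dpi against control gave -0.66 (limma adjusted p = 0.018). Set against sham, 100 dpi gave -1.10 for Tert (limma adjusted p = 0.00886) and -0.44 for Ift140 (limma adjusted p = 0.124). Only Tert was thus called lower than both references.

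Cell division genes did not pass the test. In the mitosis and cytokinesis list 47 of 50 genes had a negative change and the median was -1.16. However, limma called 0 (against 3.57% over all genes), as did edgeR and DESeq2, and 0 had an unadjusted p under 0.05. In only 1 did the groups not overlap, while 13.8% of all genes tested lay wholly below and 14% wholly above. Cdk1, the mitotic kinase, had 217, 331 and 73.8 at 14 dpi and 15.3, 23.2 and 287 at 100 dpi (log2 change -1.86 ± 1.20, limma adjusted p = 0.456). Top2a, the topoisomerase of dividing cells, had 434, 357 and 176 against 79.3, 50.02 and 561 (log2 change -1.20 ± 0.95, limma adjusted p = 0.552). In both genes the first pair of 100 dpi animals was low and the third lay among or above the 14 dpi animals. Over the whole list, the median deviation from the mean of the 18 libraries was 1.89, 1.90 and 0.65 at 14 dpi and -0.45, -0.47 and 2.07 at 100 dpi. The median change of the list was -0.59 without 100 dpi 1, -0.61 without 100 dpi 2 and -2.02 without 100 dpi 3, the deepest library, with 0 genes called in each; with all libraries it was -0.47 by edgeR and -0.51 by DESeq2. In the list of S phase and replication genes, 56 of 62 changes were negative and the median was -0.45. Here limma called 0, edgeR 0 and DESeq2 3. An unadjusted p under 0.05 was found in 12 of the 62, against 1763 of all 9896 genes tested. Without 100 dpi 3 that median was -0.57 and limma called 3.

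**Figure D3:**
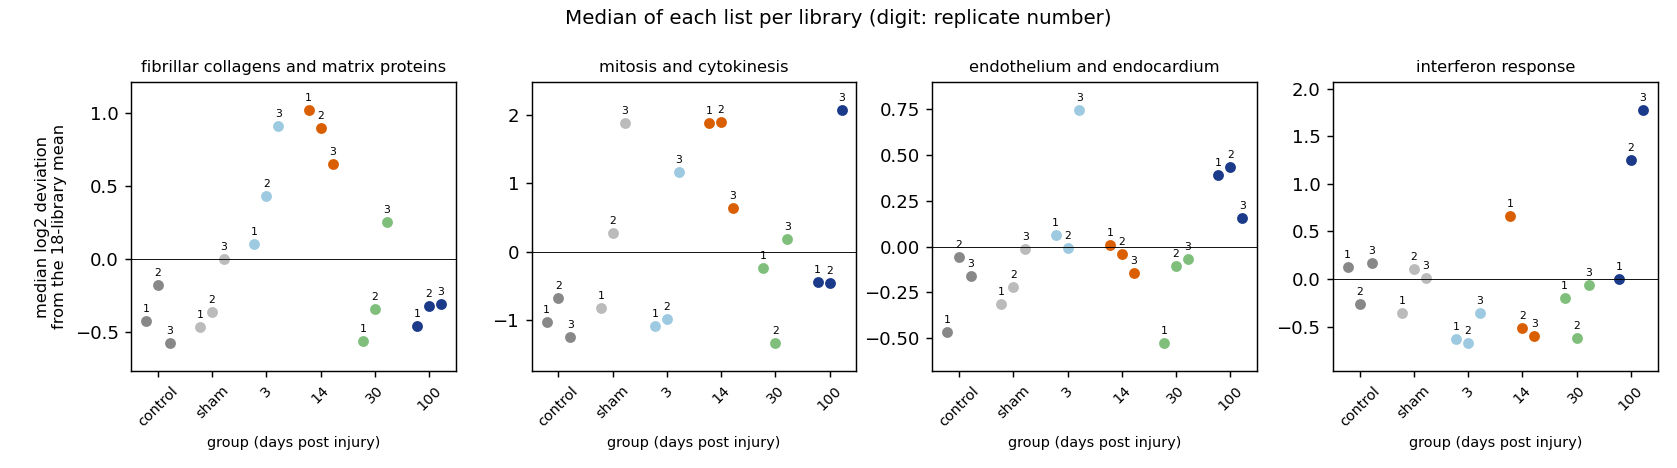
Median log2 deviation of a list's genes from their mean over the 18 libraries, per library (digit: replicate number), for 4 lists. For matrix genes all libraries at 3 and 14 dpi, sham 3 and 30 dpi 3 lie above those of control and 100 dpi. Highest are the 14 dpi libraries and 3 dpi 3. For mitosis genes 100 dpi 3, sham 3 and 3 dpi 3 lie with the 14 dpi libraries. For interferon genes 100 dpi 2 and 100 dpi 3 lie highest.

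The genes that rose were of another kind, and most of them were also high at 30 dpi. Cbx7, a chromobox subunit of Polycomb repressive complex, had 23.9, 14.02 and 21.9 at 14 dpi and 246, 244 and 322 at 100 dpi. The 14 dpi libraries were at the level of control (21.1, 22.3 and 20.8) and the 100 dpi libraries near that of 30 dpi (222, 183 and 220). The log2 change was 3.72 ± 0.30 (limma adjusted p = 1.73e-05). The RefSeq table places the gene of that symbol at chr9:37799714-37820007. Lifr, the receptor for leukaemia inhibitory factor, a cytokine that acts on heart muscle in mammals, had 351, 238 and 276 at 14 dpi and 1049.8, 1320.0 and 1171 at 100 dpi (log2 change 2.04 ± 0.17, limma adjusted p = 1.73e-05). Pdk3, a kinase that inhibits pyruvate dehydrogenase, had 1201, 1208 and 1237 against 2746, 2854 and 2976 (log2 change 1.23 ± 0.12, limma adjusted p = 7.06e-05). Nbeal1, a BEACH domain protein, had 61.03, 49.7 and 58.8 against 346, 313 and 318 (log2 change 2.51 ± 0.26, limma adjusted p = 0.000115). For Lifr, Pdk3 and Nbeal1 the 14 dpi libraries already lay above all controls, at limma adjusted p of 0.019, 0.00028 and 0.0011 for 14 dpi against control, a comparison that shares the 14 dpi libraries. The 4 genes held in all 6 fits without a library.

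The remaining strong rises covered a range of functions. Unc5b, a netrin receptor of vessels and axons, had 20.3, 43.3 and 33.4 at 14 dpi and 188, 138 and 151 at 100 dpi (log2 change 2.32 ± 0.36, limma adjusted p = 0.00297). Ikzf2, a zinc finger transcription factor, had 11.97, 7.65 and 9.22 against 59.2, 81.3 and 62.7 (log2 change 2.70 ± 0.44, limma adjusted p = 0.00391). Lcor, a ligand-dependent nuclear corepressor, had 39.5, 26.8 and 36.9 against 164, 166 and 163 (log2 change 2.24 ± 0.42, limma adjusted p = 0.0102). In all 3 genes the times were several-fold apart. Akap11 (a kinase anchor), Ablim1 (an actin-binding protein), Rab43 (a small GTPase) and Xrn1 (an RNA exonuclease) had log2 changes of 1.28, 1.07, 1.30 and 0.83, each at a limma adjusted p under 0.05 in all 6 fits without a library. Terb1, known from meiotic telomeres in mice, and Dnajc18, a co-chaperone, had log2 changes of 2.65 and 2.12. They were each called in 2 of those 6 fits, with limma adjusted p up to 0.107 and 0.0921. Dnajc18 had only 5, 6 and 3 reads at 14 dpi, close to the floor of 3 reads per library. Terb1 was lowest at 14 dpi, with a mean of 13.2 against 34.6 in control. At 100 dpi Terb1 was not called against control or sham (limma adjusted p = 0.094 and 0.484).

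**Figure D4:**
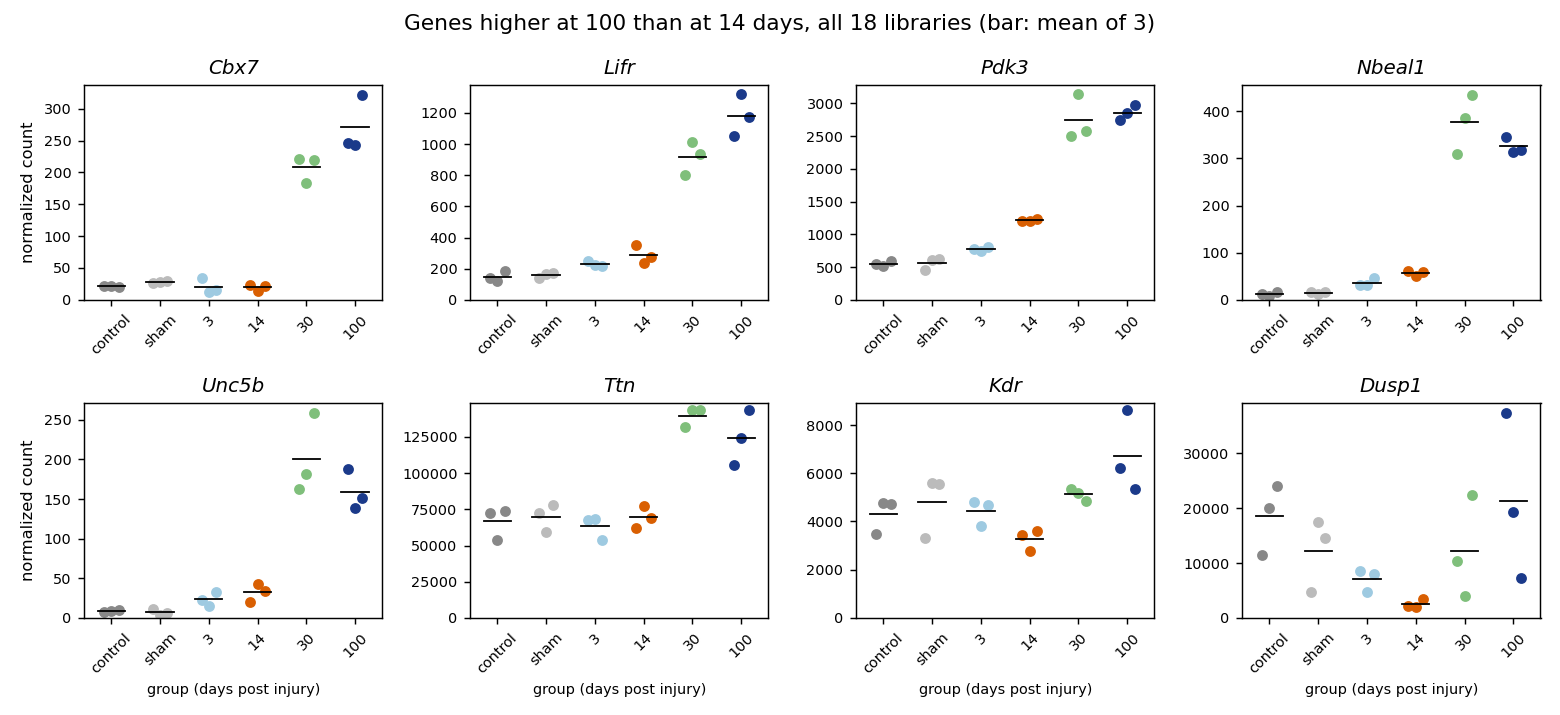
Normalized counts on a linear axis in all 18 libraries (points; bars are means of 3) for 8 genes called higher at 100 dpi than at 14 dpi, by group. Cbx7, Lifr, Pdk3, Nbeal1, Unc5b and Ttn are also high at 30 dpi and low in control, sham and 3 dpi, whereas Dusp1 is lowest at 14 dpi and varies widely at 100 dpi.

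Falls and rises stood differently towards the uninjured heart, as a description that shares the 14 and 100 dpi libraries. Of the 130 genes called lower, the control mean was nearer to 100 dpi than to 14 dpi in 74 (56.9%; 39.6% among all genes tested that were lower), and the 30 dpi mean was nearer to 100 dpi in 87 (66.9%; 53.9% among all that were lower). The 3 dpi mean was nearer to 14 dpi in 114 of them (87.7%; 67.3% among all that were lower). Of the 223 genes called higher, the control mean was nearer to 14 dpi in 205 (91.9%; 60.5% among all genes tested that were higher), and in 156 it lay below the 14 dpi mean, as it did in 2281 of all 4962 genes tested that were higher. The 30 dpi mean of these was nearer to 100 dpi in 181 (81.2%; 51.2% among all that were higher). The genes called higher had a median transcript length of 1.85 times that of all genes tested, and those called lower 1.15 times. With the gene spans of the RefSeq table, found for 91.5% of the genes in each set, the medians were 80.5 kb, 32.3 kb and, over all genes tested, 33.7 kb. The part of transcript length, of the Lars2 share and of the split between early and late libraries in the rises was not tested beyond the removal of the length trend given above.

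Among the rises, the chromatin list, the largest tested, held the most calls by count. By share it came after the endothelial list (11.8% called higher). Of 85 tested, 9 were called higher and 0 lower, 10.6% against 2.25% over all genes, although the list's median was 0.04 and turned to -0.04 with the length trend removed; 2 to 6 were called when 1 library was left out. Besides Cbx7 they were Cbx6, Phc3, Tet2, Tet3, Nsd1, Nsd3, Hdac4 and Kdm6b. Cbx6, a second chromobox gene, had 26.3, 39.5 and 29.97 at 14 dpi and 118, 119.7 and 146 at 100 dpi (log2 change 1.98 ± 0.42, limma adjusted p = 0.0197), with 3.02, 6.08 and 8.14 in control. Tet2, an enzyme that oxidises methylated DNA, had 108, 76.5 and 58.8 against 239.8, 212 and 213 (log2 change 1.48 ± 0.26, limma adjusted p = 0.00738). The groups did not overlap in either gene, and Tet2 held in all 6 fits without a library while Cbx6 held in 1 (limma adjusted p up to 0.0782). The related genes Cbx2 and Cbx8 had log2 changes of -0.29 and -0.08 and Ezh2, the Polycomb methyltransferase, one of 0.37, and these 3 did not pass (limma adjusted p = 0.764, 0.882 and 0.551). Hdac4, Kdm6b and Nsd1 lost the call with the length trend removed. Among 60 splicing factors, 3 were called higher (5% against 2.25% over all genes) and 0 lower. Son, a scaffold of nuclear speckles, had 1066, 1015 and 1008 against 1755, 1767 and 1835 (log2 change 0.79 ± 0.09, limma adjusted p = 0.000282), and Mbnl2, a muscleblind splicing regulator, had 555, 580.0 and 545 against 1139, 1034 and 1111 (log2 change 0.96 ± 0.13, limma adjusted p = 0.000754). These were among the most even changes between animals; the third, Celf2, had a log2 change of 0.71 and was called in 2 of 6 fits without a library (limma adjusted p up to 0.0669).

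Both called genes of the endothelial list were vessel growth factor receptors. In the endothelial list, 2 of 17 genes were called higher (11.8% against 2.25% over all genes) and 0 lower, the median was 0.44, and 8 members had all 100 dpi libraries above all 14 dpi libraries, as did 14% of all genes; 0 or 1 were called when 1 library was left out. Kdr, the main receptor for vascular endothelial growth factor, had 3435, 2774 and 3589 at 14 dpi and 6219, 8618 and 5353 at 100 dpi, with 3468, 4764 and 4732 in control. Its log2 change was 1.02 ± 0.21 (limma adjusted p = 0.0157). Flt1, the decoy receptor of the same family, had 395, 481 and 412 against 865, 706 and 872 (log2 change 0.92 ± 0.24, limma adjusted p = 0.0477). The groups were apart in both, and they kept the call in 4 and 0 of the 6 fits without a library, with limma adjusted p up to 0.072 and 0.153; Flt1 also lost it with the length trend removed. Cdh5, the endothelial cadherin, had 674, 565 and 438 against 1223, 879 and 1046, with a log2 change of 0.92 ± 0.26 just short of the threshold (limma adjusted p = 0.0619). Vwf, von Willebrand factor, had 1885, 725 and 435 at 14 dpi against 388, 321 and 265, with groups apart, and did not pass (log2 change -1.39 ± 0.73, limma adjusted p = 0.341). Of 6 lymphatic genes limma called 0, against 3.57% over all genes, edgeR 0 and DESeq2 1. An unadjusted p under 0.05 was found in 1 of them, against 1763 of all 9896 genes tested.

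Among 41 genes of TGF-beta and BMP signalling, 3 were called higher and 1, Fstl1 (above), lower, with a median of 0.00. The share called was 9.76%, against 3.57% over all genes. Tgfbr3, the coreceptor betaglycan, had 3675, 3843 and 3279.9 at 14 dpi and 9263, 7841 and 6614 at 100 dpi (log2 change 1.12 ± 0.16, limma adjusted p = 0.00173). Smad6, an inhibitor of BMP signalling, had 1487, 1675 and 1873 against 5687, 4054 and 2939 (log2 change 1.29 ± 0.26, limma adjusted p = 0.0152), with 3617, 3557 and 1989 in control. Smad5, a transducer of BMP signals, had 351, 326 and 303 against 801, 584 and 518 (log2 change 0.93 ± 0.21, limma adjusted p = 0.0282). All 3 had separate groups; Tgfbr3 held in all 6 fits without a library, Smad6 in 3 and Smad5 in 1 (limma adjusted p up to 0.0703 and 0.121). The ligands Tgfb2 and Tgfb3 had log2 changes of -0.66 ± 0.23 and -0.05 ± 0.22 and did not pass (limma adjusted p = 0.127 and 0.935). Of 46 Wnt, Notch and Hedgehog genes, 1 was called (2.17%, against 3.57% over all genes). It was Apc, a negative regulator of beta-catenin, which had a log2 change of 0.64 and lost the call with the length trend removed. Of 40 growth factors and receptors, limma called 0, against 3.57% over all genes, edgeR 0 and DESeq2 3. The median was -0.12, and 9 had an unadjusted p under 0.05, against 1763 of all 9896 genes tested.

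Stress and defence genes varied between animals of one time. Dusp1, a phosphatase induced within minutes by stress, had 2093, 2065 and 3426 at 14 dpi and 37360.5, 19352 and 7229 at 100 dpi (log2 change 2.82 ± 0.64, limma adjusted p = 0.0269). The 14 dpi libraries were low, with control at 11426 to 24055, and the call held in 1 of 6 fits without a library (limma adjusted p up to 0.112). Nfkbia, the inhibitor of NF-kappaB, had 611, 689.6 and 668 against 953, 1270.0 and 1377 (log2 change 0.85 ± 0.20, limma adjusted p = 0.0296; called in 1 of those 6 fits, limma adjusted p up to 0.0987). These 2 were the called members of 27 immediate early genes (7.41%, against 3.57% over all genes). All 10 interferon response genes tested, of 36 in the list, had a positive change. Their median was 1.03 and ranged from 0.68 without 100 dpi 3 to 1.62 without 14 dpi 1. In 0 of them did all 3 libraries at 100 dpi lie above all 3 at 14 dpi, against 14% of all genes tested. Of the 10, limma called 0, and 6 had an unadjusted p under 0.05, against 1763 of all 9896 genes tested. Mx2, an antiviral GTPase, had 1132, 369.7 and 433 at 14 dpi and 644, 1719 and 3206 at 100 dpi (log2 change 1.43 ± 0.49, limma adjusted p = 0.123). Irf1, an interferon-induced transcription factor, had 336, 109.6 and 87.6 against 211, 1723 and 762 (log2 change 2.13 ± 0.60, limma adjusted p = 0.0641). In both genes the first 100 dpi animal fell within the 14 dpi range and the other two were above it. Without 100 dpi 1, 4 of the 10 were called, and edgeR called 1 and DESeq2 3 with all libraries. In the macrophage list limma called 0 of 10 genes, against 3.57% over all genes, edgeR 0 and DESeq2 1. In this list 1 gene had an unadjusted p under 0.05, against 1763 of all 9896 genes tested. The list's summed level was 1704 to 3173 normalized counts at 14 dpi and 1505 to 3448 at 100 dpi, again lowest in 100 dpi 1. The part of these cells in the interferon values was not tested.

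**Figure D5:**
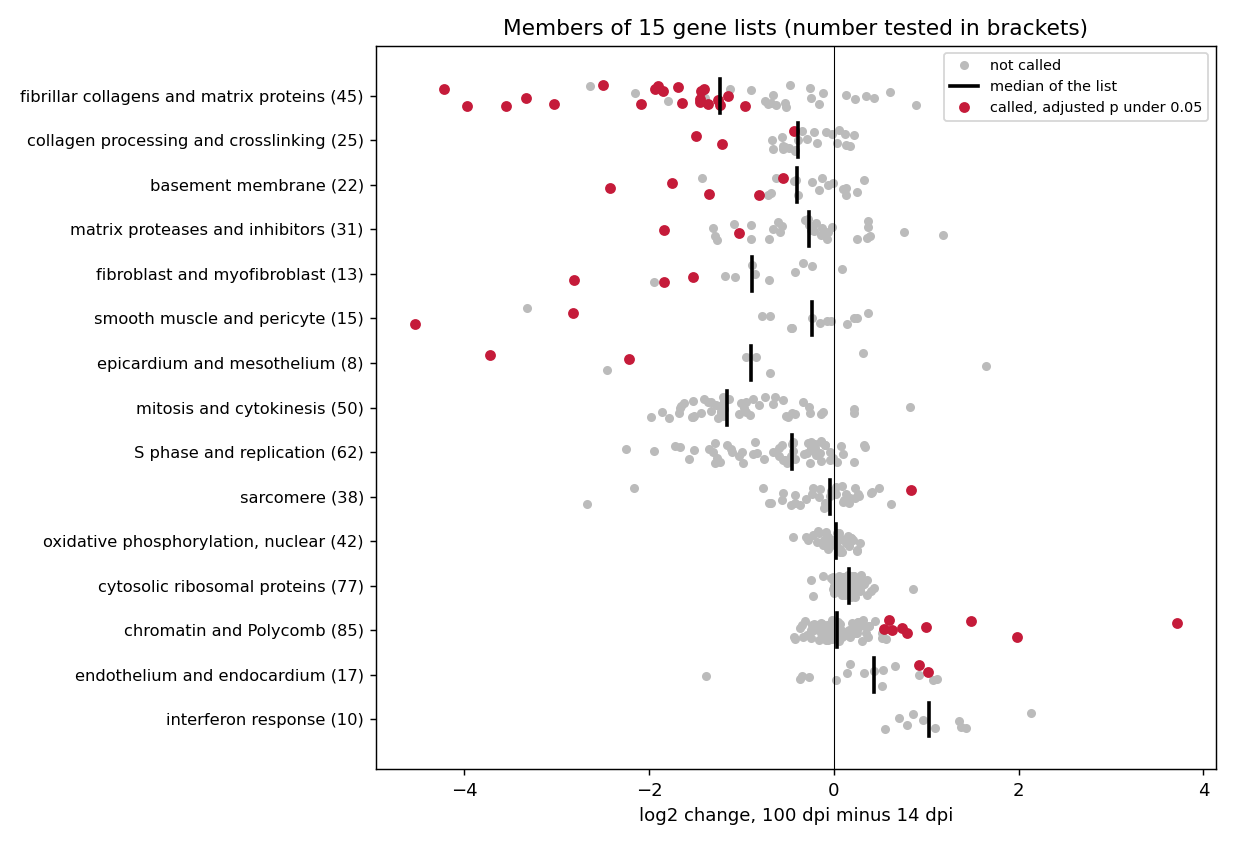
Log2 change from 14 to 100 dpi of each tested member of 15 gene lists (points; red, called by limma at an adjusted p under 0.05; black line, median of the list). Calls lie left of 0 in the matrix, basement membrane, stromal and epicardial lists and right of 0 in the chromatin and endothelial lists. The sarcomere, oxidative phosphorylation and ribosomal lists have medians of -0.04, 0.03 and 0.17. The 1 sarcomere call, Ttn, lies right of 0.

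Heart muscle genes were mostly level between the times. Of 38 sarcomere genes 1 was called (2.63%, against 3.57% over all genes). It was Ttn, the giant spring protein of the sarcomere. Ttn had 62223, 77253 and 69172 at 14 dpi and 105675, 124101 and 143339 at 100 dpi (log2 change 0.83 ± 0.18, limma adjusted p = 0.0189). Its 30 dpi libraries were as high, at 131494 to 143844, and it lost the call with the length trend removed and in 4 of 6 fits without a library (limma adjusted p up to 0.0813). Myh6 had a log2 change of -0.03 ± 0.22 and Myh7, the other cardiac myosin heavy chain, one of 0.17 ± 0.18; reads of these near-identical genes may be shared. Ankrd1, a stretch-responsive muscle protein, had 118, 63.7 and 16.1 at 14 dpi and 7.64, 7.15 and 6.27 at 100 dpi, apart but not past the test (log2 change -2.67 ± 0.86, limma adjusted p = 0.103). Nkx2-5, the cardiac homeobox factor, was the 1 called member of 23 cardiac transcription factors (4.35%, against 3.57% over all genes). It had 2947, 3044 and 3006 against 2035, 1787 and 1994 (log2 change -0.63 ± 0.15, limma adjusted p = 0.0315). It was also below control (log2 change -0.59, limma adjusted p = 0.018), and lost its call against 14 dpi whichever library was left out (limma adjusted p up to 0.112).

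Energy and housekeeping lists changed little. The medians were 0.03 for 42 nuclear genes of oxidative phosphorylation, -0.04 for 26 of the citric acid cycle, 0.08 for 34 of fatty acid oxidation and -0.04 for 32 of glycolysis. Of these lists, only fatty acid oxidation (2.94%) and glycolysis (6.25%) held calls, against 3.57% over all genes. Among the calls in these were Ppara, a lipid-sensing nuclear receptor (log2 change 0.67), and Pgam2, the muscle phosphoglycerate mutase (0.68), and both lost the call in all 6 fits without a library (limma adjusted p up to 0.131 and 0.171). Cytosolic ribosomal protein genes had a small common shift, with 70 of 77 positive, a median of 0.17 and 0 calls by limma or edgeR (DESeq2 called 1). Of the 77, 4 had an unadjusted p under 0.05, against 1763 of all 9896 genes tested. Of 36 heat shock genes 1 was called, Dnaja1, with a log2 change of -0.63, and of 30 antioxidant genes 1, Prdx2, a peroxide-removing enzyme, with -0.995. Of 19 clock genes 1 was called, Clock itself (0.51), and of 15 Schwann cell and neuron genes 1, Prph, which encodes the nerve filament peripherin. The shares called were 2.78% for heat shock, 3.33% for antioxidant, 5.26% for clock and 6.67% for Schwann cell and neuron genes, against 3.57% over all genes. Dnaja1 and Clock lost the call in all 6 fits without a library, and Prdx2 and Prph kept it in 2 (limma adjusted p up to 0.135, 0.142, 0.132 and 0.0675). Prph had 35.9, 20.4 and 32.3 at 14 dpi and 3.82, 8.93 and 3.86 at 100 dpi (log2 change -2.27 ± 0.46, limma adjusted p = 0.0152). Lists of markers of atrium (9 genes), skeletal muscle (8), fat (4), red cells (6), granulocytes and thrombocytes (7) and lymphocytes (2) had 0 calls by limma. In these lists 2, 0, 2, 3, 2 and 1 genes had an unadjusted p under 0.05, against 1763 of all 9896 genes tested. DESeq2 called 1 atrium gene and 2 granulocyte and thrombocyte genes, and edgeR 0 in both lists. When 1 library was left out, limma called 0 to 1 of the granulocyte and thrombocyte genes.

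Levels at 100 dpi were also set beside those of uninjured heart. The changes of 100 dpi against control, from the same fit and with shared libraries, were -1.68 for Tnc (limma adjusted p = 0.013), -1.22 for Thbs2 (0.088), 0.21 for Col12a1 (0.79), -0.34 for Col1a2 (0.51), -0.29 for Fbn1 (0.56) and -0.13 for Sparc (0.63). For 14 dpi against control the same genes gave 2.29 (0.013), 3.00 (0.0073), 3.54 (0.0011), 1.60 (0.025), 1.35 (0.045) and 1.02 (0.0071). For the leading rises, 100 dpi against control gave 3.59 for Cbx7 (2.9e-06), 2.99 for Lifr (4.5e-08), 2.38 for Pdk3 (1.5e-08) and 4.66 for Nbeal1 (4.1e-08). Of these 6 falling genes only Tnc differed from control at 100 dpi by the test, and it was lower. Against sham, Tnc at 100 dpi gave -1.11 and was not called (limma adjusted p = 0.102). All 4 rising genes were called higher than control and also higher than sham.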

How the data were processed

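Poly-A RNA of ventricle from 18 animals was sequenced. Per the labels, reads were mapped to the gecko genome, and transcripts assembled from them took their names from mouse genes. The submitters' processing notes list Salmon 1.8.0, HISAT2 2.2.0 and StringTie 2.2.1. The authors deposited normalized counts, used as a read signal per gene; how they were scaled is not given in the sources used here. All values of each library were whole multiples of 1 step (100% within 0.1 of a read), so reads were recovered by division. The deposited factors equalled median-of-ratios factors. The authors also deposited an FPKM table, used for marker ranks, as an alternative, and, as the ratio of normalized count to FPKM, for relative transcript length.

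Genes with a mean of at least 10 over the 6 libraries were tested. log2(normalized count + 1) values of all 6 groups, which share 1 estimate of spread, entered limma-trend (limma 3.58.1, R 4.3.3; 12 residual degrees of freedom, prior df 3.61; two-sided, Benjamini-Hochberg adjusted, called under 0.05). An exact permutation test of 3 against 3 cannot go below 0.1, so single genes rest on the model. Fold changes of low genes are understated on this scale. Libraries held 12646411 to 34898541 reads; the floor of 3 reads was 1.45 to 3.82 normalized counts in the 6 libraries and covers counting error only, as the reads carry no molecular identifiers. Library pairs within both groups differed by more than counting noise. Strand was not stated, so overlapping and antisense genes cannot be told apart.

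The comparison, the 42 gene lists and the tests were chosen with earlier results of these data known. Lists are described by counts and medians, with no set test. Not every symbol of a list had a row that was tested. Those tested were 10 of 36 for interferon, 10 of 29 for macrophage, 2 of 21 for lymphocyte and 42 of 93 for oxidative phosphorylation. Besides list members, the text names in each direction the 10 called genes with the smallest p and the 6 others with the largest change, taking mouse-style symbols and, of rows sharing a symbol, the one with the highest mean. Lars2 was chosen after its values were seen. Alternatives were pseudocounts of 0.1 and 10, other filters, TMM factors and edgeR 4.0.16 and DESeq2 1.42.0 on recovered reads, FPKM (pseudocount 0.1, mean of at least 0.5), only the 2 groups, a replicate block, removal of a loess trend on transcript length, thinning to the smallest library and leaving out each library. Same-numbered libraries of the 2 times did not deviate together, so the numbers do not pair them. Code was tested on simulated data. A planned count of promoter motifs was not used here, and some called genes are not reported here by name. Plots used matplotlib 3.10.9 in Python 3.11.15.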

Additional observations from a re-analysis of the deposited data

How the results depend on the processing

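The counts of calls moved with the number of animals and the method. With 353 calls (130 lower, 223 higher) as reported, DESeq2 gave 761 (298 lower, 463 higher), and edgeR gave 386. With the length trend removed, 146 were higher and 154 lower. The replicate block gave 235 calls (84 lower, 151 higher) and 3 in the basement membrane list; same-numbered libraries had correlations of deviations of -0.047, -0.019 and -0.096, so they share only a number. With only the 2 groups in the fit there were 289 calls (115 lower, 174 higher), of which 200 were among the 353 reported. The basement membrane list had 3 in that fit. Genes that lost the call there included Col3a1, Col4a1, Nid1, Cthrc1, Lrrc15, Prrx1, Lmod1, Slit1, Prph, Prdx2, Dnajc18, Hdac4 and Kdm6b. The remaining settings of normalization, filter, pseudocount, FPKM and depth gave 276 to 386 calls. Without 1 library there were 110 to 194 calls (39 to 67 lower, 71 to 127 higher), with 11 to 15 in the matrix list, 2 to 4 in basement membrane and 2 to 6 in chromatin. Among the genes followed one by one through the settings, none called as reported changed sign. The signs of the other called genes were not compared. Of the 32 genes named by rule, 24 kept the call in every fit without a library, 1 in none, and 28 kept it in every other setting.

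List medians without 1 library ranged from -1.32 to -1.06 for matrix, -0.37 to -0.31 for collagen processing, -1.19 to -0.74 for fibroblast, -0.42 to -0.066 for smooth muscle, 0.26 to 0.52 for endothelium, -0.074 to 0.20 for lymphatic, -0.40 to -0.20 for heart stress, -0.12 to 0.048 for cardiac transcription factors, -0.22 to -0.10 for heat shock, -0.11 to 0.24 for complement, -0.067 to -0.018 for growth factors, -0.11 to 0.058 for Wnt, Notch and Hedgehog, -0.24 to -0.060 for integrins, -0.80 to -0.055 for skeletal muscle and -0.28 to -0.035 for atrium. With the length trend removed, integrins gave -0.17 and chromatin -0.044. The cause was not tested beyond these settings, and fewer animals lower the number of calls by construction. At 100 dpi the lowest genes are limited by the floor of 3 reads.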

Other observations

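Several receptors and channels outside the lists were also called higher at 100 dpi; they were chosen after their values were seen. Agtr1b, an angiotensin II receptor, had 67.01, 66.3 and 64.6 at 14 dpi and 239, 274 and 331 at 100 dpi (log2 change 2.06 ± 0.33, limma adjusted p = 0.00348), with 16.1, 14.2 and 44.3 in control and 335, 289.96 and 286 at 30 dpi. Nalcn, a sodium leak channel, had 251, 205 and 169 against 468, 735 and 622 (log2 change 1.53 ± 0.21, limma adjusted p = 0.000857). In both genes the groups were apart and the call held in all 6 fits without a library. Nr3c1, the glucocorticoid receptor, had 1536, 1564 and 1375 against 2608, 2464 and 2605 (log2 change 0.78 ± 0.16, limma adjusted p = 0.0147). It held in 4 of those 6 fits, with limma adjusted p up to 0.0692.

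Some of the rises stood higher at 100 dpi than at 30 dpi. The examples given here were outside the lists and were not named by rule. Fmo1, a flavin-containing monooxygenase, had 2173, 2338 and 2242 at 14 dpi, 2294, 2751 and 2045 at 30 dpi and 4328, 5523 and 3997 at 100 dpi (log2 change from 14 to 100 dpi 1.02 ± 0.18, limma adjusted p = 0.008). Hrh2, a histamine receptor, had 124, 153 and 125 at 14 dpi, 172, 266 and 156 at 30 dpi and 564, 412 and 246 at 100 dpi (log2 change 1.52 ± 0.30, limma adjusted p = 0.0129). Its 30 dpi libraries already lay above all those at 14 dpi. The 100 dpi libraries of Fmo1 were above every library of the other groups, while the lowest of Hrh2 lay below the highest at 30 dpi, and Hrh2 held its call in 3 of 6 fits without a library (limma adjusted p up to 0.0608).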
